A study of Mus musculus with 13 samples.

Results

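The centromeric 50 Mb of mouse chromosome 6 held 1740 regions that carried the repressive histone mark H3K27me3 in both genotypes of the study, embryonic stem cells without SAFB and SAFB2 and WT embryonic stem cells. The regions were taken from the authors' table of 57909 union regions (genome build mm10) by 3 conditions: the region lay on chromosome 6, its start was below 50 Mb, and the authors listed it as shared between the genotypes. No signal of any library entered this choice beyond the authors' calling of the regions. The 1740 regions are 3.00% of all union regions, 6.18% of the 28174 shared ones and 16.3% of the shared regions of chromosome 6. In the same 50 Mb the authors listed a further 1333 DKO-specific and 1285 WT-specific regions, which were not used. Rosa26, the locus that carries the transgene cassette of these cells, lies on the same chromosome, 63.1 to 109.9 Mb away.

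The cells were male embryonic stem cells with 1 CAST and 1 B6 parent strain and a recombination cassette at Rosa26. Both genotypes were treated with doxycycline for 3 days before fixation in 0.6% formaldehyde, and the labels do not name what it induces. Chromatin immunoprecipitation with sequencing (ChIP-seq) was done for H3K27me3 in 4 double knockout (DKO) and 5 WT libraries and for total histone H3 in 2 DKO and 2 WT libraries. Clone 4 gave DKO replicate 1 for H3K27me3 and clone 13 gave every other DKO library, so the knockout rests on 2 clones and its total H3 on 1. The WT H3K27me3 libraries have 3 name stems, 1 shared by replicates 1, 4 and 5 and 1 each for replicates 2 and 3. Whether these stems mark separate clones is not stated. The labels of DKO replicate 3 and WT replicate 4 carry the word Old and those of DKO replicate 4 and WT replicate 5 the word New. Whether replicates were grown as separate cultures is not stated, and p-values therefore reflect only the spread among these libraries, which may be technical. In bulk chromatin, less mark per cell and fewer cells with the mark cannot be told apart.

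H3K27me3 is set by Polycomb repressive complex 2, whose catalytic subunit is usually EZH2, and it covers the silent promoters of developmental regulators in embryonic stem cells. Its broadest domains lie over CpG-rich promoters, while short and weak regions are spread between genes. SAFB and SAFB2 are nuclear RNA-binding proteins first described through their binding to scaffold attachment DNA. Total H3 measures how much chromatin of any kind was recovered from a region and serves as the background for the mark.

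The regions differed widely in size. They spanned 272 to 22389 bp with a median of 1010 bp and together covered 2710 kb. By length, 863 were under 1 kb, 794 were 1 to 5 kb, 69 were 5 to 10 kb and 14 were 10 kb or more. By position, 325 overlapped a promoter row of the authors' promoter table (a window around a start site), 862 others lay within a RefSeq gene and 553 lay outside genes. Of 13 microRNA hairpins in the span, 1 fell inside a region, Mir129-1 at chr6:29022619-29022691. Each of the 14 regions of 10 kb or more overlapped the promoter row of a gene.

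Promoter sequences show how the base composition differs between the genes at these regions. RefSeq promoters (GRCm38.p6, 250 bases before to 50 after the start) could be placed within a region for 167 starts. These had a median of 10 CpG dinucleotides per 300 bases, against 4 in the 356 promoters of the same 50 Mb outside the regions and 7 in all 32619 promoters of the genome table. Within regions of 5 kb or more the median was 17, and within regions under 1 kb it was 3. The motif searched was CG, which reads the same on both strands, and 94.7% of all promoters held at least 1. The observed over expected CpG ratio exceeded 0.6 in 36.5% of the promoters within regions, 52.6% of those within regions of 5 kb or more, 29.5% of those outside and 36.0% of all promoters. Promoters of genes at regions that fell, the region that rose, and a gene with weak regions are printed 5′ to 3′ on the strand of the gene, with each CpG in capitals, and were chosen after their values were seen. Fezf1 lies at chr6:23248215-23248514 (minus strand, 13 CpG), Grm8 at chr6:28135097-28135396 (minus, 33 CpG, 1 of 3 starts), Zc3hav1 at chr6:38354554-38354853 (minus, 20 CpG), Mest at chr6:30737800-30738099 (plus, 17 CpG, 1 of 3 starts) and Trpv5 at chr6:41680674-41680973 (minus, 1 CpG).
Fezf1: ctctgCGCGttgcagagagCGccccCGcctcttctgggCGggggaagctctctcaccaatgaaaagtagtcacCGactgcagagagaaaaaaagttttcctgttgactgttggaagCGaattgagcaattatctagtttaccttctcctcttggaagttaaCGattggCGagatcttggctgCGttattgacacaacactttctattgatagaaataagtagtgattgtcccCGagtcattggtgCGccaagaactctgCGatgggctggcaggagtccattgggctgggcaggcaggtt
Grm8: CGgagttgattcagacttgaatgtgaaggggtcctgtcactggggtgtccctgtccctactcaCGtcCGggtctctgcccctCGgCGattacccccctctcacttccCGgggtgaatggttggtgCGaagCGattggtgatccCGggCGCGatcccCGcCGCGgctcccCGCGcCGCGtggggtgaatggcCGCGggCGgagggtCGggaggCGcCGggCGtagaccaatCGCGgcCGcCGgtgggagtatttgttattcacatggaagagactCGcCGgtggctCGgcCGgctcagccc
Zc3hav1: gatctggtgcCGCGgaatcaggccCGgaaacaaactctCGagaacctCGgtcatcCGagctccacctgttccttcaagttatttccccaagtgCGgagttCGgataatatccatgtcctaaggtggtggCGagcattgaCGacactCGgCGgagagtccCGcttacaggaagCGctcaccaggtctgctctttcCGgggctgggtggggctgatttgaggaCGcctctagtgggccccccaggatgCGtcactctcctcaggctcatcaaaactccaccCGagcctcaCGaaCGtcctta
Mest: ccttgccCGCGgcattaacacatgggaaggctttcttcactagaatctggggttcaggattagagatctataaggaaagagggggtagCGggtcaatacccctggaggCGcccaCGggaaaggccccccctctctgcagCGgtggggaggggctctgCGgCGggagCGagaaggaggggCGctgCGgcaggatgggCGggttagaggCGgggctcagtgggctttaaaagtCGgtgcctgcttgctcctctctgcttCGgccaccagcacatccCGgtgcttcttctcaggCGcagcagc
Trpv5: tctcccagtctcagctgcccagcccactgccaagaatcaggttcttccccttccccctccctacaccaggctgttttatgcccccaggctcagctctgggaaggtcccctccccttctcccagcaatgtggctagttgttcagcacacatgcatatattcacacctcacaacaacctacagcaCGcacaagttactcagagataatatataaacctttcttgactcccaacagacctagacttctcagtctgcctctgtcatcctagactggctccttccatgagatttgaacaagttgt
The observed over expected CpG ratio was 0.986 in the Grm8, 0.796 in the Zc3hav1, 0.701 in the Fezf1 and 0.590 in the Mest promoter, the last just under 0.6. The Grm8 starts not printed, in the same region, had lower ratios of 0.490 and 0.142. Those of Mest had 0.327 and 0.605. The Trpv5 promoter, over which the mark was weak, has a single CpG and a ratio of 0.0608. A count of CpG describes these windows and says nothing of which proteins bind there.

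Counts were scaled to CPM, counts per 1e6 counts over all union regions of a library, with edgeR's TMM factors. The H3K27me3 libraries held 2244851 to 3035866 region counts in DKO and 1818647 to 3134799 in WT, and the total H3 libraries held 525847 to 736566 in DKO and 636691 to 699720 in WT. The median region had 19 counts in an H3K27me3 library and 8 in a total H3 library, so single short regions were measured with low precision. WT replicate 1 stood apart: the other shared regions of chromosome 6 held 12.4 to 13.9% of the region counts in the DKO libraries, 14.3 to 15.3% in 4 WT libraries and 11.6% in WT replicate 1. The mean shares of counts, the number of calls and the median difference from all regions are therefore given with and without it. Levels, ratios and the values by bin, length, location, gene group and part of the chromosome include it.

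The share of each library in the regions overlapped between the genotypes. The regions held 2.81, 2.68, 2.72 and 2.95% of the region counts in DKO replicates 1 to 4, against 2.61, 3.02, 2.82, 3.04 and 3.02% in WT replicates 1 to 5. The groups overlapped, since the lowest value of all was WT replicate 1. The mean share was 2.79 ± 0.119% in DKO (SD, n = 4), against 2.90 ± 0.186% in WT (SD, n = 5) and 2.98 ± 0.106% in WT without replicate 1 (SD, n = 4). Total H3 placed more of its counts in the same regions, with 3.14 and 3.15% in DKO and 3.21 and 3.22% in WT. The shares by library show the same order of antibodies in the shared regions beyond 50 Mb, at 13.1 ± 0.637% of H3K27me3 counts in DKO (SD, n = 4), against 14.1 ± 1.44% in WT (SD, n = 5). Without WT replicate 1 the WT mean was 14.7 ± 0.478% (SD, n = 4), and the DKO and WT libraries then no longer overlapped.

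**Figure D1:**
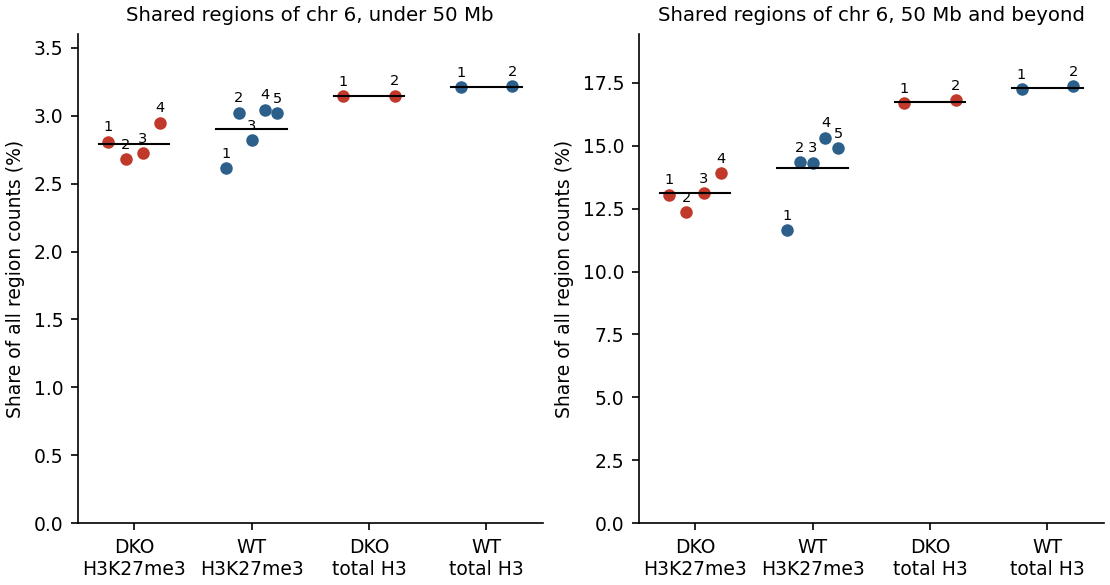
Share of each library's region counts (%, y axes from 0) in the 1740 shared regions of chromosome 6 below 50 Mb (left) and in the other shared regions of chromosome 6 (right). Each point is a library with its replicate number, DKO left of WT for each antibody, and the line is the group mean; WT replicate 1 has the lowest H3K27me3 share in both panels, 2.61% and 11.6%.

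Read as density in CPM per kb, H3K27me3 stood below total H3 over the set as a whole. H3K27me3 stood at 10.1 ± 0.415 CPM per kb in DKO (SD, n = 4) and 10.9 ± 0.558 CPM per kb in WT (SD, n = 5), while total H3 stood at 11.6 CPM per kb in DKO and 11.9 CPM per kb in WT. The ratio of H3K27me3 CPM to total H3 CPM was 0.866 in DKO and 0.920 in WT, where 1 means the same share of both kinds of library. A ratio above 1 in both genotypes was found in 130 of the 1740 regions. Both scales count only reads within union regions, so 1 is the average over those regions and not the genomic background. A ratio under 1 therefore does not show that the mark was below background. The 20 regions with the most counts held 17.9% of all counts in the 1740. Shared regions of the other autosomes had higher ratios, 1.19 in DKO and 1.26 in WT, and those of chromosome 6 beyond 50 Mb lower ones, 0.801 in DKO and 0.879 in WT at 50 to 100 Mb and 0.729 in DKO and 0.785 in WT at 100 Mb and beyond.

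The level followed the length of a region. Regions under 1 kb had a ratio of 0.671 in DKO and 0.721 in WT, and those of 1 to 5 kb had 0.732 in DKO and 0.764 in WT. The ratio was 1.19 in DKO and 1.25 in WT for 5 to 10 kb, and 1.71 in DKO and 1.92 in WT for the 14 regions of 10 kb or more. Of the 130 regions with a ratio above 1 in both genotypes, 56 were among the 83 regions of 5 kb or more and 74 were shorter. Location gave a smaller contrast: regions at promoter rows had a ratio of 1.16 in DKO and 1.24 in WT, those elsewhere in genes 0.697 in DKO and 0.727 in WT, and those outside genes 0.707 in DKO and 0.758 in WT. The authors' lists are of H3K27me3 regions, so length and level are not independent of each other.

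**Figure D2:**
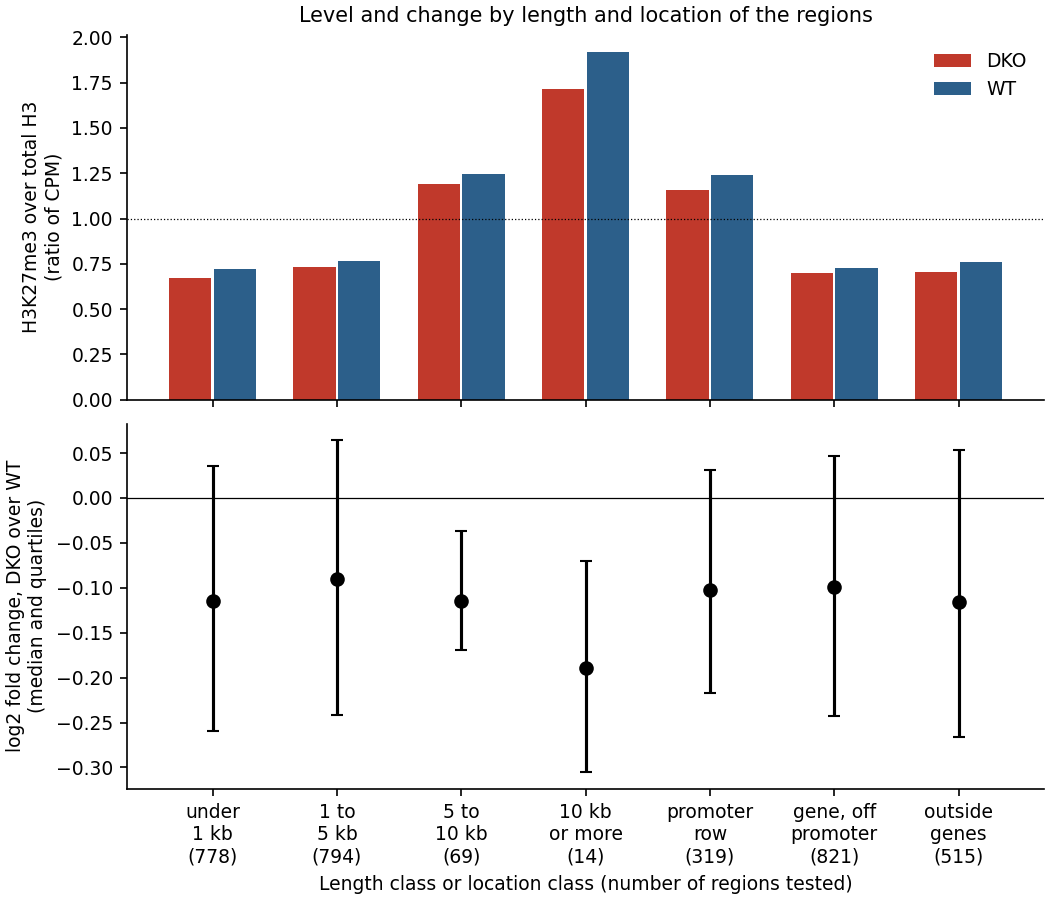
Upper panel, the ratio of H3K27me3 CPM to total H3 CPM by length class and location class, DKO bars left of WT bars, with a dotted line at 1. Lower panel, the log2 fold change of H3K27me3 (DKO over WT) as median (point) and quartiles (bar) over the regions tested, whose number stands under each class; the ratio passes 1 in the regions of 5 kb or more and at promoter rows, and the median is lowest, -0.19, in the 14 regions of 10 kb or more.

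Regions became more frequent toward the middle of the chromosome. Bins of 5 Mb held 32, 81, 10, 74, 88, 176, 219, 258, 406 and 396 regions in order from the centromere. The bin at 10 to 15 Mb held the fewest, 10, of which 3 were at promoter rows, and the bin at 40 to 45 Mb the most, 406, of which 107 were at promoter rows. The density of the mark ran the other way in part, with 13.9 ± 0.811 CPM per kb in DKO and 16.4 ± 0.335 in WT at 5 to 10 Mb, the bin that holds the Dlx genes, and 8.42 ± 0.549 CPM per kb in DKO and 9.34 ± 0.942 in WT at 40 to 45 Mb (SD, n = 4 DKO and 5 WT). At 40 to 45 Mb WT replicate 1 was the lowest library for H3K27me3, with 7.68 CPM per kb. The other WT libraries had 9.52 to 10.0 CPM per kb there and the DKO libraries 7.87 to 9.10. Total H3 varied less over the same bins, at 10.7 CPM per kb in DKO and 11.2 in WT at 5 to 10 Mb and 11.2 CPM per kb in DKO and 11.5 in WT at 40 to 45 Mb.

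**Figure D3:**
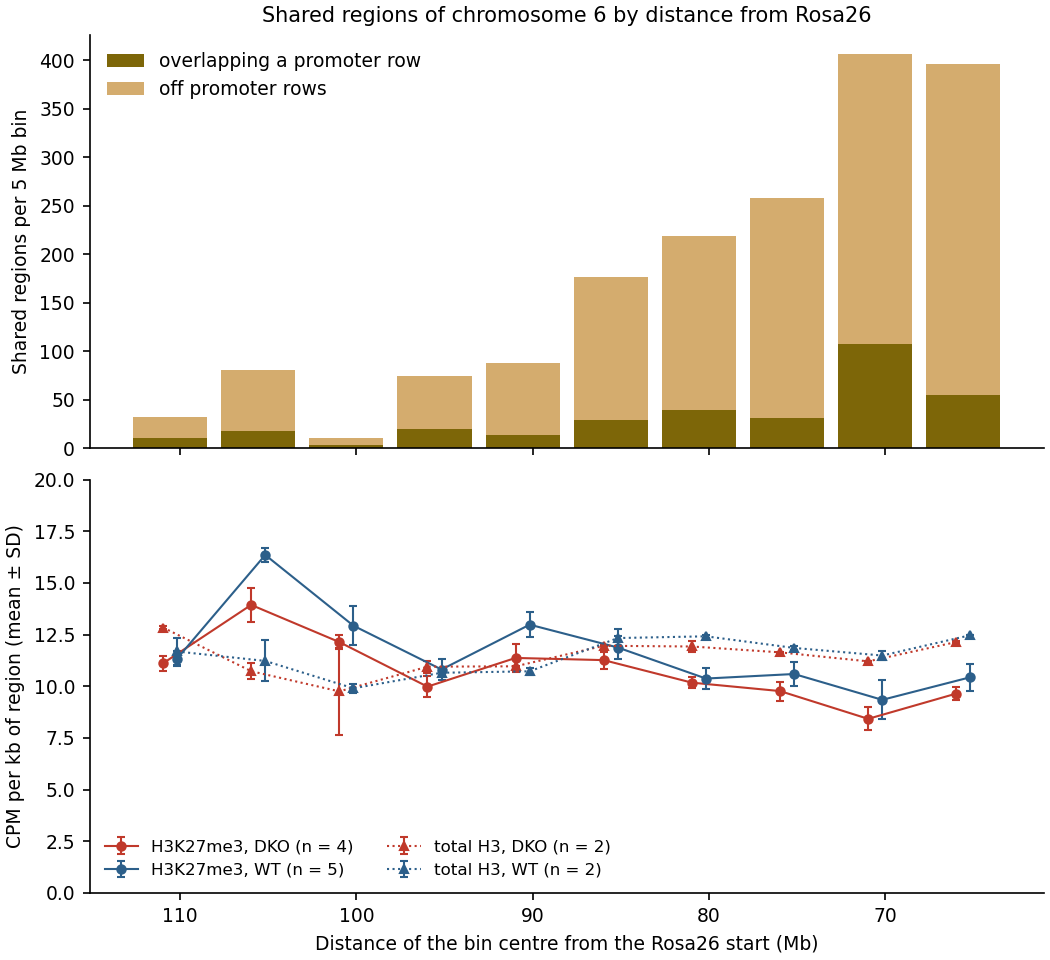
Shared regions of chromosome 6 below 50 Mb in 5 Mb bins, by the distance of the bin centre from the start of Rosa26 (Mb, far end on the left). The upper panel counts regions at promoter rows and off them, and the lower panel gives the level in CPM per kb of region as mean ± SD for H3K27me3 (circles) and total H3 (triangles), DKO in red and WT in blue; the highest H3K27me3 level, 13.9 in DKO and 16.4 in WT, is in the bin of 81 regions that holds the Dlx genes.

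Between the genotypes, few of the regions changed and nearly all of those that did were lower in DKO. Each region was tested with edgeR's quasi-likelihood F test, fitted over every union region, with Benjamini-Hochberg adjusted p-values and a threshold of 0.05. Of the 1740 regions, 1655 had enough counts to be tested, 1 rose and 14 fell in DKO. These 15 are 0.906% of the regions tested, against 4.01% of all 40418 union regions tested, and the 14 that fell are 0.846%, against 1.87%, while 1 rose, against 2.14% of all. The shared regions of the other autosomes had 409 that rose and 386 that fell among 16881 tested, or 4.71%. All union regions include those that the authors listed as specific to 1 genotype. The other shared regions of chromosome 6 had 0.745% called at 50 to 100 Mb and 1.25% at 100 Mb and beyond. The share of calls in the set thus lay below that of all regions and between those of the other 2 parts of chromosome 6.

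Log2 fold changes over the set were small and mostly below 0 with TMM scaling. The median log2 fold change (DKO over WT) was -0.11 over the regions tested and -0.016 over all union regions tested, and 69.0% of the regions, against 51.8% of all, lay below 0. The sign of the regions' own median turned with the scaling, to 0.051 when counts were scaled on the shared regions of chromosome 6 beyond 50 Mb, which moved the median of all regions to 0.14. Relative to the median of all regions the difference was -0.090 with TMM and -0.085 with that scaling. It was -0.14 without WT replicate 1 and in the libraries with Old or New alone, -0.055 with the shared regions fitted alone, -0.053 without DKO replicate 3 and -0.048 in the libraries without Old or New, and below 0 under all 21 alternatives. In 37 regions every DKO library was below every WT library, 2.24% against 3.4% of all regions tested, and in 4 every DKO library was above, 0.242% against 3.35%. The median was -0.14 in the shared regions of chromosome 6 at 50 to 100 Mb and -0.18 at 100 Mb and beyond, and 0.014 in those of the other autosomes. These medians were compared as values, with no test of their difference.

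Leaving out WT replicate 1, the library with the low chromosome 6 share, raised the number of calls in the set to 42, with 2 that rose and 40 that fell. They are 2.54% of the regions then tested, against 7.19% of all. Of the 15 regions called with all libraries, 13 were among the 42. Promoter rows of Pax4, a homeobox factor of pancreatic development, Chrm2, a muscarinic acetylcholine receptor, and Kcnd2, a potassium channel subunit, lay in regions that fell in that fit and not with all libraries, and the Asb4 region was the other that rose. The olfactory receptor genes Olfr435, Olfr453 and Olfr47, and the T cell receptor beta segments around Trbc1 also lay in such regions. These genes belong to multigene families, and whether reads shared between copies had a part in their calls was not tested.

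**Figure D4:**
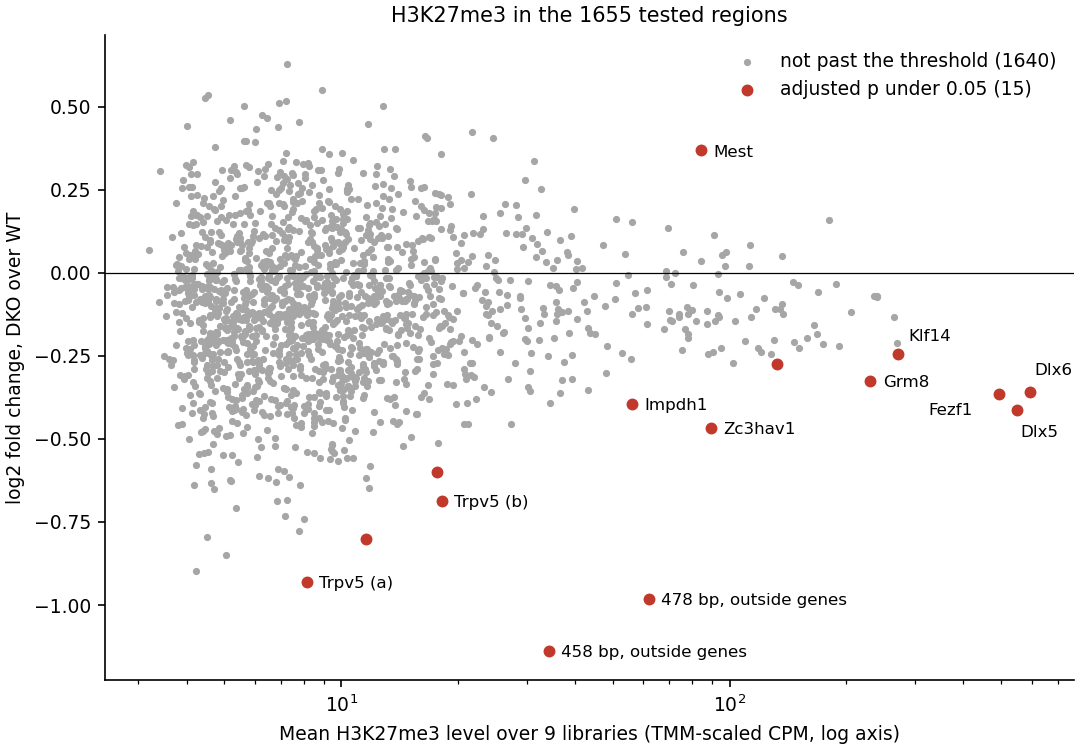
Log2 fold change of H3K27me3 (DKO over WT) against the mean level over the 9 libraries (CPM, log axis) for the 1655 regions tested. Each point is a region, the 15 red ones have an adjusted p under 0.05, and 14 of them lie below 0. The called regions include long H3K27me3 domains at the right and 2 short regions with the largest falls. The rest run from intermediate levels down to a weak region inside Trpv5, at 5.54 CPM in DKO and 10.2 CPM in WT.

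Calls were most frequent among the largest domains. Of the 14 regions of 10 kb or more, 5 fell and none rose, or 35.7%, and the median log2 fold change over the 14 was -0.19 (-0.045 with scaling on the shared regions beyond 50 Mb, where none of the 14 passed). In regions of 10 kb or more on the other autosomes 188 fell and 12 rose among 451, or 44.3%, with a median of -0.18. The long domains near the centromere of chromosome 6 therefore had a share of calls no higher than that of long domains elsewhere. Regions of 5 to 10 kb had 2 calls among 69, or 2.90%, against 13.3% on the other autosomes, and regions of 1 to 5 kb had 6 among 794, or 0.756%, against 3.55%. Depth is higher in long regions, and its part in these shares was not tested. Counts were also simulated for this comparison from rows of all lengths, with the same spread set for every row. There the test recovered 14.9% of 1.5-fold, 59.7% of 2-fold and 89.4% of 3-fold changes. Of its calls 6.8% were of unchanged rows, above the 5% that the threshold sets. These rates are not specific to the long domains.

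Both Dlx genes of this chromosome, homeobox factors of craniofacial, limb and forebrain interneuron development, lay in adjoining domains that fell. The Dlx6 domain (chr6:6847134-6867567, 20434 bp, also covering the antisense genes Dlx6os1 and Dlx6os2) had 552, 465, 505 and 527 CPM in DKO replicates 1 to 4, against 654, 689, 666, 653 and 625 CPM in WT replicates 1 to 5. All 4 DKO libraries were below all 5 WT libraries. The mean was 512 ± 37.1 CPM in DKO (SD, n = 4) and 657 ± 23.1 CPM in WT (SD, n = 5), a log2 fold change of -0.36 (SE 0.06) with an edgeR adjusted p of 2.58e-06. The Dlx5 domain next to it (chr6:6868180-6885695, 17516 bp) had 488, 435, 439 and 489 CPM in DKO, against 619, 637, 609, 618 and 602 CPM in WT. The groups were again apart, with a log2 fold change of -0.41 (SE 0.06) and an edgeR adjusted p of 3.62e-08. Total H3 over the Dlx6 domain was 198 and 214 CPM in DKO and 227 and 215 CPM in WT, with both DKO libraries below both WT libraries, and over the Dlx5 domain 187 and 151 CPM in DKO and 204 and 162 CPM in WT, where the groups overlap. The log2 fold change of total H3 was -0.090 over Dlx6 and -0.13 over Dlx5, neither of which passed. Its part in the falls was not tested beyond the interaction described with total H3. That interaction was -0.28 over Dlx6 and -0.30 over Dlx5 on the log2 scale (edgeR adjusted p 0.755 and 0.753). The mark exceeded total H3 by a ratio of 2.75 in DKO and 3.38 in WT over Dlx5, and of 2.48 in DKO and 2.97 in WT over Dlx6. ChIP-seq reads carry no strand of origin, so the Dlx6 domain cannot be divided between Dlx6 and its antisense genes. With scaling on the shared regions beyond 50 Mb neither domain passed.

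Fezf1, a zinc finger factor of olfactory and forebrain development, lay in the longest region of the set (chr6:23241629-23264017, 22389 bp, which also overlaps Cadps2). It had 469, 385, 385 and 464 CPM in DKO, against 568, 530, 532, 563 and 549 CPM in WT. No DKO library reached the lowest WT library, and the log2 fold change was -0.36 (SE 0.06) with an edgeR adjusted p of 5.61e-06. DKO replicate 1, from clone 4, and replicate 4 from clone 13 were the higher pair, and the 2 lower libraries were also of clone 13. The ratio to total H3 was 2.07 in DKO and 2.35 in WT. Total H3 over the region was 211 and 199 CPM in DKO, against 251 and 216 CPM in WT, so both DKO libraries were again below both WT libraries (log2 fold change -0.19, not passed). At its start, the promoter printed above for Fezf1 has 13 CpG.

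Grm8, a metabotropic glutamate receptor, and Klf14, an imprinted Krüppel-like factor, gave smaller falls. The Grm8 domain (chr6:28125053-28136080) had 214, 210, 184 and 199 CPM in DKO, against 250, 270, 238, 261 and 246 CPM in WT, and the groups did not overlap. Its log2 fold change was -0.33 (SE 0.07) with an edgeR adjusted p of 0.00201. Total H3 over Grm8 was also lower, at 112 and 102 CPM in DKO, against 119 and 136 CPM in WT, a log2 fold change of -0.27 that did not pass. The change of H3K27me3 beyond that of total H3 was -0.079 on the log2 scale (edgeR adjusted p 0.970), and the ratio to total H3 was 1.89 in DKO and 1.98 in WT. The Klf14 domain (chr6:30953143-30965835) had 263, 246, 225 and 252 CPM in DKO, against 284, 327, 276, 286 and 286 CPM in WT. These groups were also apart, by less, with a log2 fold change of -0.24 (SE 0.07) and an edgeR adjusted p of 0.0271. The Klf14 call was lost without DKO replicate 2 or 3 and without WT replicate 2 or 5, at -0.25 to -0.19 with edgeR adjusted p of 0.0662 to 0.168. The ratio to total H3 over Klf14 was 1.49 in DKO and 1.96 in WT.

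The other long domains showed values that did not pass the test. Nxph1, which encodes the neurexin ligand neurexophilin, was nearest the threshold with 249 ± 18.6 CPM in DKO (SD, n = 4) and 288 ± 14.1 CPM in WT (SD, n = 5), a log2 fold change of -0.21 and an edgeR adjusted p of 0.0614. The Foxp2 domain, at the start of a forkhead factor of speech and motor circuits, had 147 ± 5.84 CPM in DKO (SD, n = 4) and 168 ± 10.5 CPM in WT (SD, n = 5) with a log2 fold change of -0.20. Domains at Parp12, Prrt4, Fam131b, Epha1, Zfp467 and Lncpint had log2 fold changes between -0.18 and -0.033. The Peg10 and Sgce domain, the start of a pair of imprinted genes that share a promoter region, had the only positive value of the 14, 0.16, with 191 ± 4.82 CPM in DKO (SD, n = 4) and 171 ± 9.20 CPM in WT (SD, n = 5).

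The region at Mest, a paternally expressed imprinted gene, was the only one that rose. It spans chr6:30732716-30739122, includes the start printed above and had 95.6, 101, 88.8 and 102 CPM in DKO, against 84.9, 82.3, 39.0, 84.5 and 80.4 CPM in WT. Every DKO library was above every WT library, and WT replicate 3, the only library with its name stem, was far below its group. The log2 fold change was 0.37 (SE 0.10) with an edgeR adjusted p of 0.0204, and without WT replicate 3 it was 0.22 with an adjusted p of 0.205. The call was also lost without DKO replicate 2 (0.36, adjusted p 0.0673) and without DKO replicate 4 (0.35, adjusted p 0.0600). Total H3 was 68.6 and 80.0 CPM in DKO, against 76.8 and 98.7 CPM in WT. The rise over the change in total H3 was 0.58 on the log2 scale, with an edgeR adjusted p of 0.667. The library names hold the tag b6, and the labels do not state whether reads from either parental allele were set aside.

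The largest falls were in 2 short regions outside genes. The first, 458 bp at chr6:3201272-3201729 near the centromeric end of the assembly, had 22.8, 19.8, 18.4 and 21.6 CPM in DKO, against 55.5, 38.6, 38.0, 50.4 and 42.8 CPM in WT. The second, 478 bp at chr6:49236279-49236756, had 46.0, 39.6, 37.4 and 38.8 CPM in DKO, against 103, 69.4, 67.0, 80.4 and 76.5 CPM in WT. In both, all DKO libraries were well below all WT libraries and WT replicate 1 was the highest library. The log2 fold changes were -1.14 (SE 0.15) and -0.98 (SE 0.12), with edgeR adjusted p of 3.66e-10 and 6.89e-12. The 2 regions also had the highest H3K27me3 densities of the 1740, at a mean over genotypes of 74.7 and 130 CPM per kb, against a median of 8.16. Total H3 was likewise dense there, at 50.4 and 78.6 CPM per kb against a median of 11.8, which ranks them the third and the first. Total H3 in the first region was 15.2 and 24.4 CPM in DKO, against 29.8 and 22.9 CPM in WT, and in the second 32.4 and 35.3 CPM in DKO, against 45.5 and 37.2 CPM in WT. The change of H3K27me3 beyond that of total H3 was -0.80 in the first and -0.72 in the second on the log2 scale. Neither passed (edgeR adjusted p 0.755 and 0.719). Whether the high density of both antibodies over so short a stretch had a part in these falls was not tested. The ratio to total H3 was 1.04 in DKO and 1.71 in WT in the first region and 1.20 in DKO and 1.92 in WT in the second.

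**Figure D5:**
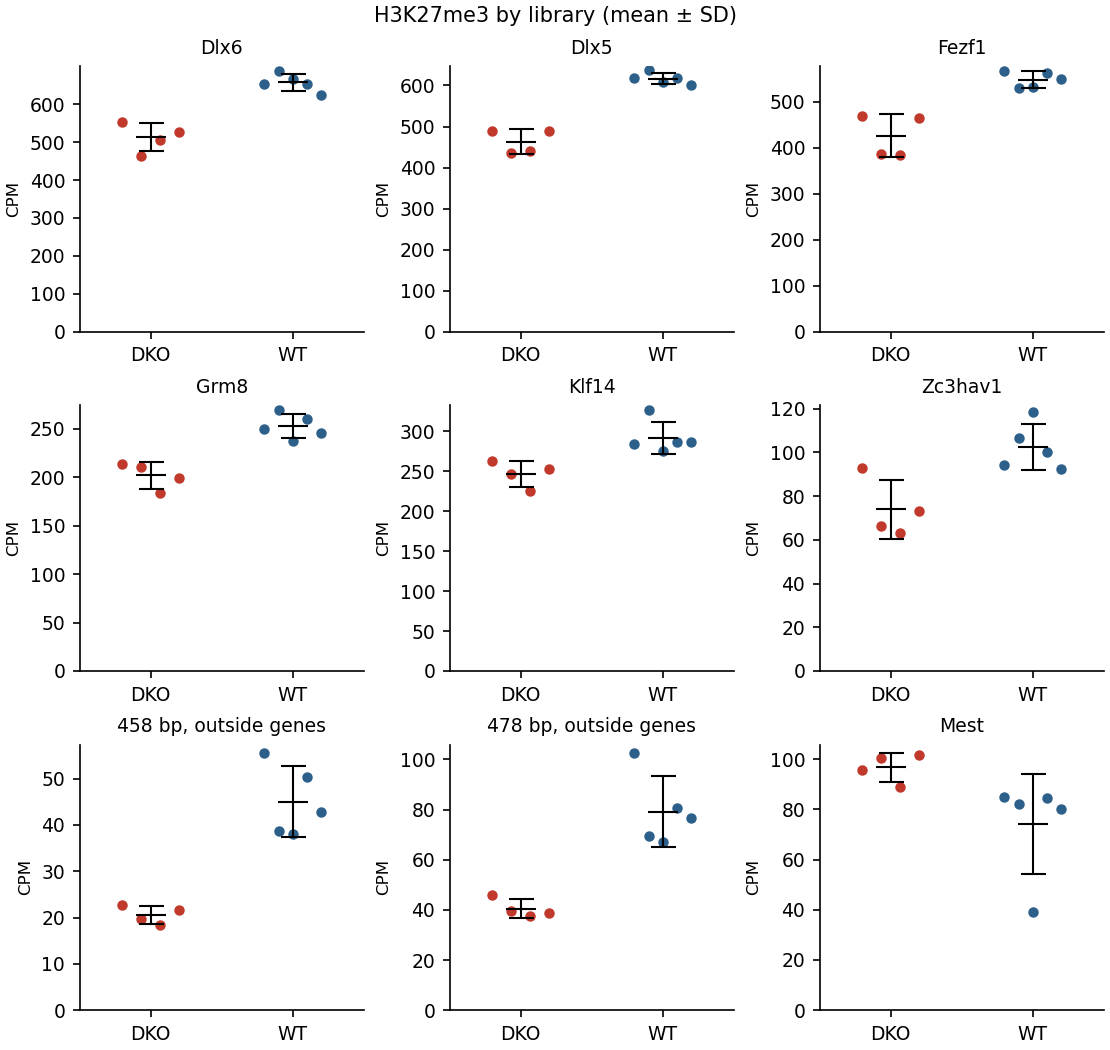
H3K27me3 in CPM (y axes from 0) for 9 of the 15 regions past the threshold, DKO left of WT in each panel. Points are libraries and bars are mean ± SD (n = 4 DKO and 5 WT); in 7 of the 8 panels of regions that fell all DKO points lie below all WT points, Zc3hav1 being the exception, and in the Mest panel 1 WT library lies at 39.0 CPM, far below the others.

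The other 7 regions that fell were 1153 to 6222 bp long, and 4 of them lay at or in known protein-coding genes. Zc3hav1, an antiviral zinc finger protein, had 92.8, 66.4, 63.1 and 73.2 CPM in DKO over chr6:38351131-38357352, against 94.2, 106, 119, 100 and 92.6 CPM in WT. DKO replicate 1, of clone 4, was above 1 WT library while the other 3 DKO libraries were below all of them, and the log2 fold change was -0.47 (SE 0.10) with an edgeR adjusted p of 8.46e-04. Impdh1, an enzyme of guanine nucleotide synthesis, had 57.0, 45.7, 46.9 and 41.1 CPM in DKO, against 73.2, 68.3, 55.5, 55.6 and 60.8 CPM in WT, with 3 of the 4 DKO libraries below all WT libraries (log2 fold change -0.39, edgeR adjusted p 0.0318). Leaving out DKO replicate 2, 3 or 4 or WT replicate 1, 2 or 5 ended the Impdh1 call, with edgeR adjusted p of 0.0540 to 0.142. A pair of regions inside Trpv5, a calcium channel of kidney and gut epithelium, fell by 0.93 and 0.69 on the log2 scale, at 5.54 ± 1.67 CPM in DKO and 10.2 ± 3.39 CPM in WT, and at 13.5 ± 1.73 CPM in DKO and 21.9 ± 4.62 CPM in WT (SD, n = 4 DKO and 5 WT). Both had a lower CPM of H3K27me3 than of total H3 in either genotype, with ratios of 0.458 and 0.449 in DKO and 0.854 and 0.716 in WT. The weaker Trpv5 region was no longer called without DKO replicate 3 or WT replicate 4 (edgeR adjusted p 0.144 and 0.132), and the other without DKO replicate 2 or 4 or WT replicate 3 (0.0508 to 0.0741). The region over the Trpv5 promoter printed above had a log2 fold change of -0.098 and did not pass. The other 3 were a region outside genes at chr6:34459716-34461241 (log2 fold change -0.80), a region in the long noncoding gene 9330158H04Rik (-0.60) and a dense region outside genes at chr6:47775078-47777690 (-0.27, edgeR adjusted p 0.0490). Leaving out DKO replicate 2 or WT replicate 2 ended the call of each of these 3. The 9330158H04Rik region was also lost without DKO replicate 1 or 3 or WT replicate 4 or 5, and the dense region without any 1 library other than DKO replicate 1 and WT replicate 4. Over the 3, edgeR adjusted p without 1 of these libraries was 0.0585 to 0.251.

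Gene groups of this stretch of the chromosome were described through the member region with the highest count at each gene's promoter row. Of the 77 listed genes with a promoter row below 50 Mb, 57 had such a region, over 56 distinct regions tested. Of these, 1 rose and 5 fell, or 10.7%, against 0.906% of the regions of the set and 4.01% of all union regions tested. The lists were chosen with earlier results known and hold the genes of the long domains, so this share was not tested against either. Their log2 fold changes had a median of -0.12, against -0.11 over all regions of the set. Among the transcription factors, 12 of 15 genes had a region, 4 fell (Dlx5, Dlx6, Fezf1 and Klf14) and none rose, or 33.3%, and the median log2 fold change was -0.21. All 12 had values below 0 with TMM. They included Pax4 at -0.27, Irf5, an interferon regulatory factor, at -0.21 and Creb3l2, a stress-responsive factor, at -0.22, which did not pass. With scaling on the shared regions beyond 50 Mb, 8 of the 12 were below 0, none passed and the median was -0.072. Regions were not found at Tfec, Nrf1 and Trim24.

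At signalling genes, 1 region fell and none rose. None of the 7 ligand genes passed, with a median of -0.20 (-0.060 with that scaling). Wnt2, a secreted growth factor, had 86.6 ± 4.27 CPM in DKO (SD, n = 4) and 102 ± 6.80 CPM in WT (SD, n = 5), and Npy, a neuropeptide of appetite control, 101 ± 5.48 CPM in DKO (SD, n = 4) and 116 ± 5.88 CPM in WT (SD, n = 5). Lep, which encodes leptin, had the only positive value among them, 0.13. Of 15 receptor and signal transducer genes 1 fell, Grm8, or 6.67%, against 4.01% of all union regions tested. The median was -0.11 (0.022 with scaling on the shared regions beyond 50 Mb). Plxna4, a semaphorin co-receptor in axon guidance, had 175 ± 12.6 CPM in DKO (SD, n = 4) and 204 ± 9.20 CPM in WT (SD, n = 5), with a log2 fold change of -0.22 and an edgeR adjusted p of 0.0830. Smo, the Hedgehog signal transducer, was at 0.062 and Ptprz1, a receptor phosphatase, at -0.0048.

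Adhesion, channel and imprinted genes gave 2 calls, both at imprinted genes. None of the 10 adhesion and matrix genes passed, with a median of -0.078 that turned to 0.074 with scaling on the shared regions beyond 50 Mb. Podxl, a sialomucin, was the most marked of them, with 196 ± 7.63 CPM in DKO (SD, n = 4) and 213 ± 14.9 CPM in WT (SD, n = 5) and a ratio to total H3 of 2.43 in DKO and 2.20 in WT. Regions lay at 6 of 10 channel and transporter genes, and none passed (median -0.16, and -0.017 with that scaling). Of 13 imprinted genes of this stretch 10 had a region. Among their 9 distinct regions tested 1 rose (Mest) and 1 fell (Klf14), or 22.2%, against 4.01% of all union regions tested. Klf14 is also counted among the transcription factors, and the list was chosen with earlier results known, so this share was not tested. The median was -0.024 and turned to 0.13 with the same scaling. Asb4, an imprinted gene near Peg10, was at 0.40 with 30.9, 25.1, 29.5 and 28.0 CPM in DKO, against 26.1, 22.4, 19.0, 17.4 and 22.5 CPM in WT. In 3 of 4 DKO libraries it was above all WT libraries, and the edgeR adjusted p was 0.120. Ezh2 itself had a weak region with 16.9 ± 5.53 CPM in DKO (SD, n = 4) and 17.4 ± 2.69 CPM in WT (SD, n = 5). Among 12 genes transcribed in nearly all cells 2 had a region, Copg2 at -0.024 and Ube2h at 0.63 with an edgeR adjusted p of 0.131.

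Promoter rows, counted by the authors in the same libraries, gave a narrower view of the same places and are no independent evidence. A total of 506 rows of 322 genes overlapped a region, and 250 rows could be tested. None rose and 2 fell, 0.8% against 0.628% of all promoter rows called in either direction and 0.19% of all rows that fell. Dlx6os2 (chr6:6864150-6867150) had 184, 144, 153 and 170 CPM in DKO, against 203, 257, 215, 211 and 219 CPM in WT, with a log2 fold change of -0.44 (SE 0.11) and an edgeR adjusted p of 0.0293. C130093G08Rik, a noncoding gene beside Fezf1 (chr6:23249133-23252133), had 71.7, 62.7, 85.8 and 96.9 CPM in DKO, against 119.5, 134.6, 109.8, 99.9 and 124.9 CPM in WT, with a log2 fold change of -0.55 (SE 0.13) and an edgeR adjusted p of 0.0169. In both rows all DKO libraries were below all WT libraries. Each call was lost without DKO replicate 2 (edgeR adjusted p 0.214 and 0.204) and without WT replicate 2 or 5. The Dlx6os2 call was also lost without DKO replicate 3 or 4 or WT replicate 3, and that of C130093G08Rik without DKO replicate 1. A read that overlapped several promoter rows was not counted, so rows in crowded loci such as Dlx5 and Dlx6 lose counts.

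Total H3 changed in 1 region. With 2 libraries per genotype 720 regions could be tested, none rose and 1 of the 720 fell, against 0.0211% called among all union regions tested. The region, inside Plxna4 at chr6:32259264-32262593, had 11 and 15 counts in DKO, against 35 and 41 counts in WT, a log2 fold change of -1.46 and an edgeR adjusted p of 0.0371. Its H3K27me3 had a log2 fold change of -0.097 and did not pass. The call was lost when any 1 of the 4 libraries was left out. DESeq2 called no region for total H3, and edgeR gave 38 with an unadjusted p under 0.05. The change of H3K27me3 beyond that of total H3, tested as the interaction of genotype and antibody over all 13 libraries with edgeR, passed in none of 1727 regions, against 0.00184% of all, and 81 had an unadjusted p under 0.05. In simulated counts for the interaction only 4.5% of 2-fold and 19.7% of 3-fold changes were recovered. The absence of calls therefore does not show that no region differed. Those counts came from rows of all lengths with the same spread set for every row. The rates are not specific to the long domains, where the SE of the interaction was 0.15 over Dlx6 and 0.16 over Dlx5 (log2 scale).

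Regions on either side of the 50 Mb limit were weak. The last region inside (chr6:49997338-49998458) had 8.56 ± 2.65 CPM in DKO (SD, n = 4) and 7.66 ± 2.87 CPM in WT (SD, n = 5). The first region outside (chr6:50006590-50007517) had 5.08 ± 1.54 CPM in DKO (SD, n = 4) and 8.23 ± 2.35 CPM in WT (SD, n = 5). Both are short regions outside genes. The labelled cell type could be checked by promoter H3K27me3 alone, which cannot show expression. Promoter rows of 9 pluripotency genes, highest row per gene, had 0 to 33.9 CPM with a median of 4.37, and those of 8 fibroblast genes 0.715 to 203 CPM with a median of 6.47, against a median of 6.09 over all rows.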

How the data were processed

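Raw read counts per region, with no normalization, were deposited by the authors for H3K27me3 in WT and DKO cells and for total H3, over 1 set of 57909 union regions (mm10, per the submitters' processing notes). The same notes name featureCounts, Subread, bedtools, MACS2 and Bowtie2, with no role for any. The settings of the region calling, and whether replicates were pooled for it, were not given in the sources used here. Promoter counts were made by the authors with featureCounts 2.0.3, without strand and without assigning a read to several rows, per the file headers. A promoter row spans 3001 bp, and rows of chromosomes M and Y were left out.

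The test was edgeR 4.0.16's in R 4.3.3 (TMM, filterByExpr with a minimum count of 10 and a minimum total of 15, quasi-likelihood F test, two-sided, no covariate), fitted on whole tables and adjusted by Benjamini-Hochberg over all rows tested. Region fits used 4 DKO and 5 WT H3K27me3 libraries, 2 DKO and 2 WT H3 libraries, or all 13 for the interaction. The steps were tested on simulated counts with 200 changed rows and the same spread set for every row. Levels are TMM-scaled CPM, so they are relative to all union regions of a library and cannot show a change shared by all of them. Alternatives were other scalings, DESeq2 1.42.0, other filters, library sets and left-out libraries. The regions at genes, the gene lists and the tests were chosen with earlier results of these data known. The regions named are all that passed, the 5 densest and the 5 longest, those at listed genes, and promoter rows that passed. The regions called without WT replicate 1, the remaining regions of 10 kb or more and the printed promoters were chosen after their values were seen. Gene names come from the authors' promoter table and RefSeq (GRCm38.p6).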

Additional observations from a re-analysis of the deposited data

Results flagged for a closer look

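In 42 groups of 4 or 5 libraries, 3 held a library set apart from the others by more than Dixon's 95% critical value, and chance flags about 1 in 20 groups. In the Mest region the DKO libraries had 88.8 to 102 CPM of H3K27me3 and 4 WT libraries 80.4 to 84.9 CPM, while WT replicate 3 had 39.01 CPM. In the Klf14 region the DKO libraries had 225 to 263 CPM and 4 WT libraries 276 to 286 CPM, while WT replicate 2 had 327.0 CPM. In the shared regions of chromosome 6 beyond 50 Mb, WT replicate 1 had 11.64% of its region counts, against 14.3 to 15.3% in the other WT libraries.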

How the results depend on the processing

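Main values were 1 region that rose, 14 that fell and a median log2 fold change of -0.11. Over all 40418 union regions tested, 866 rose and 756 fell. With scaling on the shared regions of chromosome 6 beyond 50 Mb, 0 rose, 2 fell and the median was 0.051, while 1018 rose and 40 fell of all 40418. The sign of the Prrt4 and Fam131b domains also turned there, to 0.0047 and 0.070. With scaling off chromosomes 6 and 11, 0 rose and 18 fell, against 532 and 868 of all 40418. With DESeq2 0 rose and 11 fell, against 363 and 407 of all 40418. In libraries with Old or New alone 0 of 1718 rose and 9 fell, against 407 and 285 of all 47039. In the others alone 0 of 1553 rose and 5 fell, against 27 and 118 of all 38419. Against WT replicates 1, 4 and 5, which share a name stem, without the other WT libraries 0 of 1699 rose and 8 fell. Over all 44181 regions then tested 465 rose and 414 fell. The cause was not tested, although these last 3 fits hold fewer libraries. Leaving out 1 library at a time gave 0 to 2 that rose, 8 to 40 that fell and medians of -0.15 to -0.066. The 8 came without DKO replicate 2, where 363 of all 44079 regions fell. The 40 came without WT replicate 1, where 1464 of all 40072 fell. The 2 short regions outside genes passed under all 21 alternatives, and Dlx5, Dlx6 and Fezf1 under all but the scaling beyond 50 Mb, where they were at -0.27, -0.22 and -0.23. Grm8 also missed with the libraries that carry neither word, at -0.26.

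For total H3, DESeq2, no filter and each left-out library gave 0 calls. The interaction gave 0 calls under every alternative run. Promoter rows gave 1 that rose with library totals, 1 that rose and 4 that fell with a term for the library set, 0 that fell without a filter, and 0 to 1 that rose and 0 to 4 that fell when 1 library was left out.

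Replicate numbers did not clearly pair the libraries, since the correlation of same-numbered H3K27me3 deviations was -0.028 to 0.070. By the words in the labels it was 0.0056 for Old (DKO replicate 3, WT replicate 4) and 0.089 for New (DKO replicate 4, WT replicate 5). With 2 libraries per genotype, the total H3 values are equal in size and cannot show pairing. With the replicate block 1 region rose, 13 fell and 0 promoter rows fell, against 422 and 539 of all 40418 regions. A term for the library set gave 1 region that rose and 18 that fell, against 999 and 904 of all. Depth limits the single short regions, with a median of 19 counts, and the interaction.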

Other observations

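A group of 3 of the 5 densest regions of the stretch lay close together beyond 47 Mb and outside promoter rows. The region at chr6:47766529-47767435 had 58.2, 42.2, 38.4 and 31.7 CPM in DKO, against 59.3, 45.9, 66.0, 52.2 and 38.9 CPM in WT, and the groups overlapped. The region at chr6:47646545-47650670 had 137 ± 7.82 CPM in DKO (SD, n = 4) and 161 ± 9.98 CPM in WT (SD, n = 5), with a log2 fold change of -0.23 and an edgeR adjusted p of 0.0943. The region at chr6:47775078-47777690 had 119 ± 14.3 CPM in DKO (SD, n = 4) and 144 ± 12.6 CPM in WT (SD, n = 5). Its ratio to total H3 was 1.87 in DKO and 2.56 in WT. Total H3 was dense in all 3, at 21.5, 33.9 and 23.0 CPM per kb in the order given, ranks 10, 4 and 7 of the 1740 and against a median of 11.8, and its part in these values was not tested.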
